A study of Mus musculus with 4 samples.

Results

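The receptor PD-1 and its ligands PD-L1 and PD-L2 are encoded in the mouse by Pdcd1, Cd274 and Pdcd1lg2. These 3 genes, taken by their symbols from the 27998 genes in the count tables, were followed as raw UMIs (unique molecular identifiers, each marking an original RNA molecule) through every immune cell type of B16-GP33 melanomas. PD-1 is an inhibitory receptor that T cells display after activation. When a ligand binds it, PD-1 recruits phosphatases such as SHP-2 that dampen signals from the T cell receptor and CD28, and its sustained display is a hallmark of exhausted CD8 T cells in tumours. PD-L1 is carried by many cell types and is induced by interferon-gamma, with IRF1 acting on its gene, whereas PD-L2 is better known from dendritic cells and macrophages, where interleukin-4 and STAT6 induce it.

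All mice were C57BL/6 and carried B16-GP33, a melanoma line injected under the skin of the right flank. They received 200 ug of a control IgG, 200 ug of anti-PD-1, 200 ug of anti-PSGL-1, or 200 ug of each of the last 2 antibodies (called the combination here), on days 8, 10 and 12, and tumours were taken on day 18. PSGL-1, which binds selectins, is reported to restrain T cells as well. Live cells (negative for propidium iodide) with the leukocyte protein CD45.2 on their surface were sorted and captured on the 10x Genomics Chromium platform. The number of mice behind a library is not given in the sources used here, and the antibodies bind protein, so that RNA levels do not check the labels. Melanoma cells lack CD45 and were not sorted for, although transcripts on a list of melanoma genes were found in sorted cells, as given below. The part of melanoma RNA in the Cd274 values was not tested.

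There was 1 library per treatment, so no difference has a replicate check and no test between treatments could be made. All intervals are 95% intervals for counting error only. The libraries held 4614 to 9733 barcodes and 40913129 to 53303195 UMIs, and 8748 cells were kept with IgG, 5019 with anti-PD-1, 6492 with anti-PSGL-1 and 4228 with the combination. Where 4 values follow each other below, they keep this order. Any pair of libraries shared 5 to 12 kept barcodes. The IgG library stood apart. Its cells were the shallowest, with a median of 3674.5 UMIs against 6164 to 8392 elsewhere. It held 1106 of the 1168 cells of an unnamed cluster, in which 69.7% of cells mixed markers of different lineages. Its CD8 T-like cells carried 77.2 CPM (CPM being a gene's UMIs scaled to the total of its class in that library) of 5 erythroid genes, against 2.24 or less in the other libraries. The part of these differences in the results was not tested.

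Pdcd1 (ENSMUSG00000026285) lies on the minus strand of chromosome 1, chr1:94038305-94052553 in mm10, and has 5 exons. Cd274 (ENSMUSG00000016496) has 7 exons and lies on the plus strand at chr19:29367455-29388095. Pdcd1lg2 (ENSMUSG00000016498, 5 exons) follows it on the same strand at chr19:29410919-29471161. The ligand genes are 22823 bases apart, with 0 coding genes between them. For Cd274 the RefSeq start lies shortly before the gene start given above, and positions below are counted from the RefSeq starts. The 250 bases before each RefSeq start are shown because the ligand genes, although neighbours, differed in the order of their levels over the cell classes. They are from RefSeq (GRCm38.p6, the assembly called mm10), read 5′ to 3′ on the strand of the gene, at chr1:94052554-94052803, chr19:29367188-29367437 and chr19:29410669-29410918. Capitals mark each match, on either strand, to GAAANNGAA, a repeat read by interferon regulatory factors, and to GGAAA, the core read by NFAT factors.
Pdcd1: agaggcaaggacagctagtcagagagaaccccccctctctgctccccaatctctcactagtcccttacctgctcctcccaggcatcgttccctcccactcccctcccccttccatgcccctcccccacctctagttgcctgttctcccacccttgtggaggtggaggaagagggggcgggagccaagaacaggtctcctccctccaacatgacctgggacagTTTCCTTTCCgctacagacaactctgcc
Cd274: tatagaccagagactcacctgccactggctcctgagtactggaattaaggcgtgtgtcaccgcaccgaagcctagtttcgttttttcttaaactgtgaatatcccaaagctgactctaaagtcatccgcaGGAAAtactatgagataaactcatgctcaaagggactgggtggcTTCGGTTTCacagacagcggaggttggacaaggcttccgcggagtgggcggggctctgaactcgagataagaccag
Pdcd1lg2: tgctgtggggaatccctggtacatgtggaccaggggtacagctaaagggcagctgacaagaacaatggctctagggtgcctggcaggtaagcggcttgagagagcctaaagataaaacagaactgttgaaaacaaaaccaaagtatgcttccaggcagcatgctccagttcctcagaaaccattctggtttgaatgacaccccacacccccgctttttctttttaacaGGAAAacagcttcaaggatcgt
Cd274 alone of these 3 windows held the interferon factor repeat, once, as the reverse complement TTCGGTTTC from 76 to 68 bases before the start. Such a match stood in 7.13% of 32851 promoters of this length. The NFAT core was found in all 3 windows, 2 times before Pdcd1 (28 to 24 and 23 to 19 bases before the start) and 1 time before each ligand gene, and 55.6% of promoters held it. No match in these windows was found to TTCNNNGAA (gamma-activated site, in 7.02% of promoters) or GGGANTTCC (1 form of the NF-kappaB site, 1.43%). Other forms of the NF-kappaB site were not searched for. Nor was the AP-1 site TGANTCA found, which 6.75% of promoters held. The same was true of TATAAA, held by 12.4%. Matches describe the letters only.

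Pdcd1 belonged to the T cells, and above all to the CD8 T cells. Its level in CD8 T-like cells was 636 CPM with the combination and 589.8 with anti-PD-1, against 458 with IgG and 411 with anti-PSGL-1. Regulatory T-like cells, the suppressive Foxp3-positive subset, held 275, 429.8, 306 and 466 CPM. In conventional CD4 T-like cells the level was 116, 213, 181 and 283 CPM. By their medians over the 4 libraries the classes stood in this order, and the ranges of neighbours overlapped. A further T cell class of no assigned subset, led by the receptors Klra6, Klra1 and Klra7, lay clearly lower at 53.5, 50.3, 30.2 and 51.4 CPM. Macrophage-like cells, at 2.92 to 4.32 CPM, and monocyte-like cells, at 2.25 to 4.47 CPM, had the lowest medians, and the ranges of NK-, B- and neutrophil-like cells overlapped theirs. In macrophage- and monocyte-like cells together, Pdcd1 reached 0.552% to 0.703% of its level in CD8 T-like cells, and a list of T cell markers reached 0.764% to 1.37% of its own level there, so that Pdcd1 was no higher than the T cell transcripts found in these cells.

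Dendritic cells held intermediate Pdcd1 levels and, beside them, T cell transcripts. Migratory dendritic-like cells, which carry antigen to lymph nodes, stood at 112 CPM with IgG and 99.2 CPM with anti-PSGL-1, the 2 libraries with at least 50 such cells. There the T cell list was at 14.96% and 16.8% of its CD8 level, and Pdcd1 at 24.5% and 24.1%. cDC2-like cells, the dendritic subset that presents antigen to CD4 T cells, held 22.1, 13.9, 35.0 and 8.50 CPM of Pdcd1. Their T cell list stood at 7.95%, 2.77%, 10.6% and 1.08% of the CD8 level, in the same order of libraries as Pdcd1. cDC1-like cells, the subset that presents antigen to CD8 T cells, stood at 14.9, 7.69 and 10.6 CPM in the first 3 libraries, from 30, 5 and 21 UMIs. Their T cell list was at 3.36%, 3.46% and 3.02%, in another order of libraries than Pdcd1. The part of T cell transcripts in the dendritic values was not tested. NK-like cells were low in every library, with 6, 21, 38 and 15 Pdcd1 UMIs in 799, 533, 423 and 245 cells, which is 2.63, 9.96, 15.9 and 8.07 CPM. There Pdcd1 was at 0.575%, 1.69%, 3.87% and 1.27% of its CD8 level, and the T cell list at 12.8%, 11.4%, 13.5% and 8.45%. The part of T cell transcripts in the NK-like values was not tested. In the anti-PD-1 library, 52 neutrophil-like and 55 B-like cells held 0 Pdcd1 UMIs, which by 3 counts allows up to 30.2 and 20.2 CPM.

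**Figure D1:**
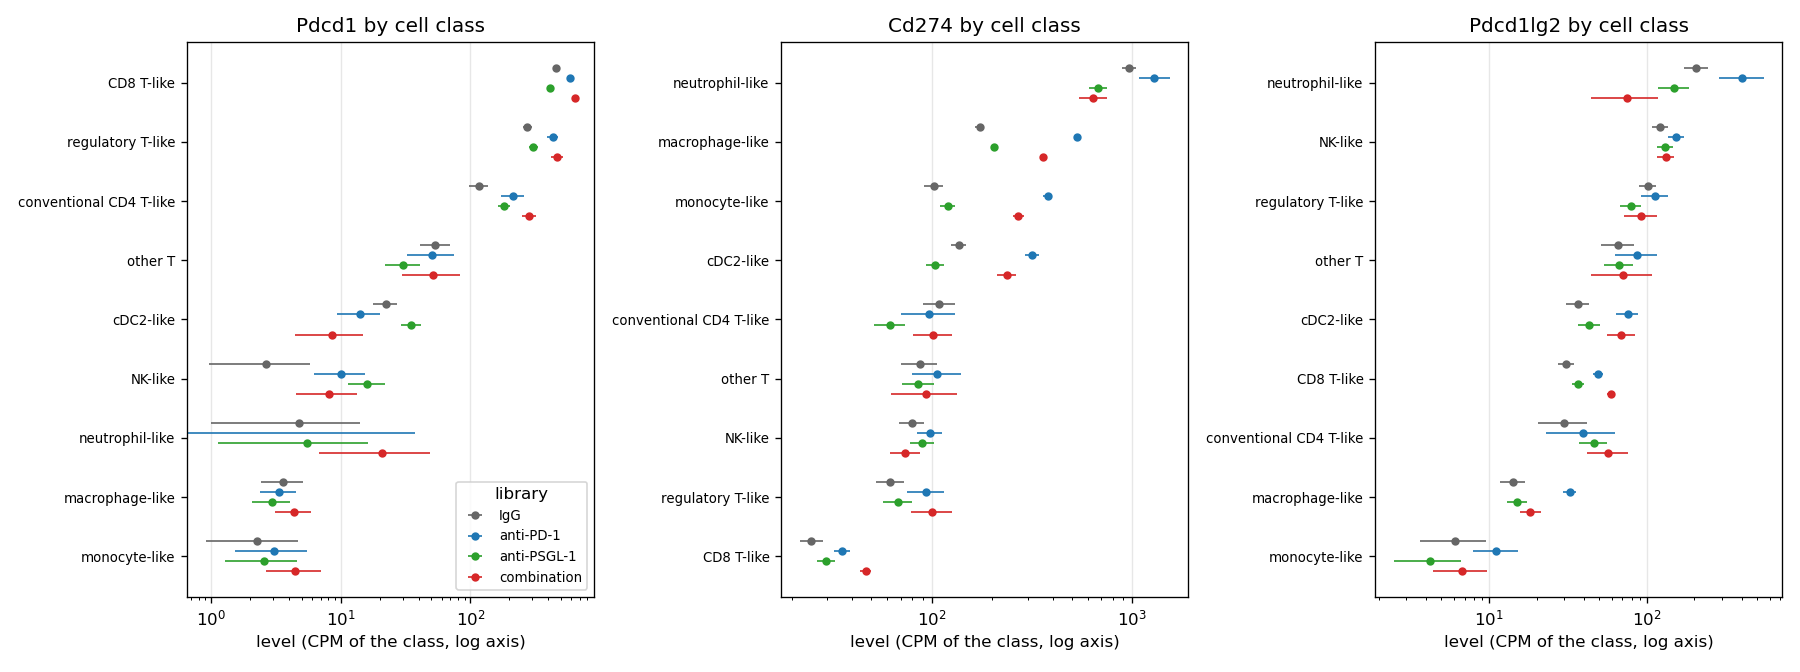
Levels of Pdcd1, Cd274 and Pdcd1lg2 (CPM of the class, log axis) by cell class, 1 point per library with at least 50 cells of the class and its 95% interval for counting error. Pdcd1 is highest in CD8 T-like cells (411 to 636 CPM), Cd274 and, by its median, Pdcd1lg2 in neutrophil-like cells, and a value of 0 UMIs has no point on the log axis.

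Pdcd1 in CD8 T-like cells was higher with anti-PD-1 and with the combination than with IgG, and slightly lower with anti-PSGL-1. The ratio to IgG was 1.29 (1.24 to 1.34) with anti-PD-1. It was 0.898 (0.862 to 0.935) with anti-PSGL-1. It was 1.39 (1.34 to 1.44) with the combination. These 3 ratios share the IgG library. The combination, set against each antibody alone, gave 1.08 (1.05 to 1.11) over anti-PD-1 and 1.55 (1.498 to 1.60) over anti-PSGL-1, so that both libraries from mice given anti-PD-1 were above both others. The low anti-PSGL-1 value depended on which cells were counted. With the cells of the mixed IgG cluster that held Cd8a or Cd8b1 added to the class, the log2 ratio of anti-PSGL-1 to IgG was 0.020 in place of -0.16, while those of anti-PD-1 and the combination were 0.56 and 0.67 in place of 0.36 and 0.47. Without the naive-like cluster described next, the 3 log2 ratios were 0.24, -0.24 and 0.31.

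Clusters of CD8 T-like cells, found without the 3 genes, differed in Pdcd1, and most of all a naive-like cluster differed from the others. The cluster led by Tff1, Tmprss6 and Ifng held 591, 622, 509 and 658 CPM. The cluster led by the granzymes Gzmf, Gzme and Gzmd, serine proteases of cytotoxic granules, held 559, 638, 531 and 686 CPM. The dividing cluster, led by Hist1h1b and Nusap1, held 491, 594, 420.1 and 618 CPM. Lower was the cluster led by Gzmk and Cxcr3, at 335, 421, 308 and 559 CPM, where the combination stood furthest from IgG (ratio 1.67, 1.48 to 1.89, against 1.11, 1.04 to 1.19, in the Tff1 cluster). The cluster led by Dapl1, S1pr1 and Tcf7, genes of naive T cells, was nearly without Pdcd1, at 24.1, 23.2 and 15.5 CPM in the libraries with at least 50 of its cells. In each of the 4 clusters rich in Pdcd1 the anti-PSGL-1 library was lowest and the combination highest.

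**Figure D2:**
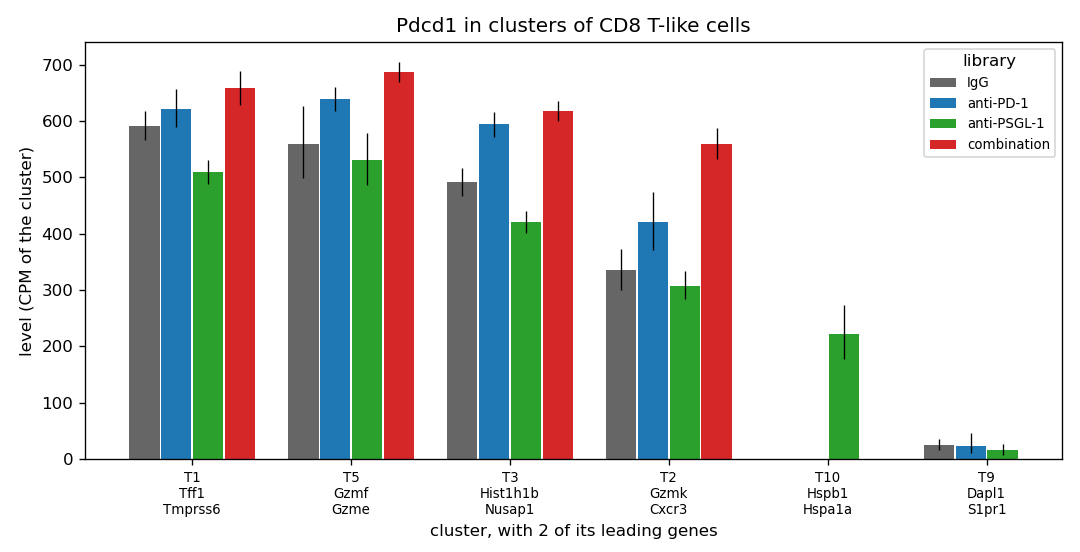
Pdcd1 levels (CPM of the cluster) in clusters of CD8 T-like cells named by 2 leading genes, 1 bar per library with at least 50 cells and its 95% interval for counting error. The combination is highest and anti-PSGL-1 lowest in the 4 clusters at the left, and the Dapl1 and S1pr1 cluster lies at 15.5 to 24.1 CPM.

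The libraries also held these clusters in different amounts, the granzyme cluster with 73, 433, 103 and 580 cells and the naive-like cluster with 300, 79, 145 and 14. With every library given the cluster make-up of IgG, the Pdcd1 ratios to IgG were 1.14, 0.869 and 1.22 for anti-PD-1, anti-PSGL-1 and the combination. With the IgG levels kept and only the make-up exchanged they were 1.11, 1.03 and 1.10, so that the higher Pdcd1 of the anti-PD-1 and combination libraries lay partly within clusters and partly in their make-up. Cells with Mki67 or Top2a UMIs, genes of dividing cells, held 506, 591, 439 and 616 CPM of Pdcd1, and the other CD8 T-like cells 398, 586, 363 and 687. The ratios to IgG were 1.17, 0.869 and 1.22 in dividing cells and 1.47, 0.912 and 1.72 in the others. The ratios of anti-PD-1 and the combination were thus larger among cells without these genes, and that difference was not tested. The naive-like cluster, nearly without Pdcd1 and with 300 cells in IgG against 14 with the combination, was not set apart here. Its part in the difference was not tested either.

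Pdcd1 was found in more cells of the anti-PD-1 and combination libraries, with a small rise in the number of UMIs in each. With each cell thinned to 2000 UMIs, 44.5% (41.8 to 47.2), 59.6% (56.8 to 62.4), 45.3% (42.7 to 47.9) and 65.7% (63.4 to 67.9) of CD8 T-like cells held a Pdcd1 UMI. Unthinned shares were 61.3%, 86.3%, 68.5% and 90.0% at median depths of 4667, 9886, 7327 and 10692 UMIs. In the background class, macrophage- and monocyte-like cells, the thinned shares were 0.618%, 0.608%, 0.464% and 0.856%, at median depths of 4729, 6297, 6713 and 8090 UMIs. A positive CD8 T-like cell held on average 1.81, 1.88, 1.70 and 1.99 UMIs after thinning. Cells with 3 or more UMIs made up 9.28%, 13.8%, 8.19% and 17.3% of the class. Too shallow for thinning were 72, 19, 36 and 21 cells of the CD8 class and 235, 132, 176 and 48 of the background class.

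Regulatory and conventional CD4 T-like cells had larger Pdcd1 ratios to IgG than CD8 T-like cells. In regulatory T-like cells they were 1.56 (1.38 to 1.77), 1.11 (0.998 to 1.24) and 1.69 (1.48 to 1.93) for anti-PD-1, anti-PSGL-1 and the combination. In conventional CD4 T-like cells they were 1.83 (1.39 to 2.42), 1.56 (1.28 to 1.92) and 2.44 (1.96 to 3.05). There anti-PSGL-1 also stood above IgG, where it was below in CD8 T-like cells. These differences between classes were not tested. The level of Cd8a and Cd8b1 together was 138, 201, 354 and 390 CPM in regulatory T-like cells. It was 70.6, 85.5, 112 and 262 CPM in conventional CD4 T-like cells, and 1396, 1527, 1331 and 1775 in CD8 T-like cells. The part of CD8 T cell transcripts in these Pdcd1 ratios was not tested. Thinned shares were 32.6%, 47.5%, 39.5% and 52.7% of regulatory T-like cells and 12.7%, 22.0%, 20.5% and 25.8% of conventional CD4 T-like cells, all above the background shares. These rest on 77 to 483 regulatory and 121 to 498 conventional CD4 T-like cells in a library.

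Within CD8 T-like cells thinned to the same depth, Pdcd1 was rarer in cells that held Tcf7, the gene of TCF-1, a factor of naive and progenitor cells. It was found in 13.2%, 13.8%, 16.2% and 33.3% of cells with a Tcf7 UMI and in 49.96%, 62.0%, 48.5% and 66.5% of cells without one. Cells with a Tox UMI, a factor of exhausted T cells, held Pdcd1 in 62.6%, 65.6%, 61.4% and 69.9% of cases against 35.7%, 57.1%, 38.5% and 63.4% without. The gap between cells with and without Tox was thus wide with IgG and anti-PSGL-1 and narrow with anti-PD-1 and the combination, a difference that was not tested. Nr4a1, an early factor of receptor signalling, went with no such gap, at 42.7%, 57.8%, 43.0% and 62.5% with it and 44.9%, 59.96%, 45.9% and 66.3% without. Its relative Nr4a2 did, with 56.5%, 63.96%, 56.6% and 68.4% of the cells that held it against 35.5%, 54.8%, 37.1% and 62.4% of the others, a gap again narrower with anti-PD-1 and the combination. Nr4a3, Ifng, Eomes, Irf4 and Prdm1 were examined in the same way, and for none of these 5 genes did the gap have 1 direction in all 4 libraries. In the combination library the Tcf7 value rests on 42 cells, and Tcf7 is a leading gene of the naive-like cluster. That cluster, nearly without Pdcd1, held 300, 79, 145 and 14 of the CD8 T-like cells. Its part in the Tox and Nr4a2 gaps was not tested.

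Factors known to act on the Pdcd1 gene were counted in CD8 T-like cells, where 17 of 21 listed genes were measured (20 CPM or more in either library). A gene was called higher or lower when it differed by 1.5-fold or more. With anti-PD-1 against IgG 0 were higher and 4 lower, where 3.07% of all 5368 genes measured were higher and 3.15% lower. With anti-PSGL-1 against IgG 0 were higher and 0 lower, against 0.830% and 0.377% of all genes. With the combination against IgG 1 was higher and 4 lower, against 3.33% and 2.14% of all genes. The median log2 ratios of the list were -0.17, -0.08 and -0.11. Tcf7 stood at 63.7, 13.3, 47.2 and 8.91 CPM, and Satb1, which encodes a chromatin organiser that represses Pdcd1, at 155, 76.3, 109 and 54.3. Both were lower in the libraries where Pdcd1 was higher, and both are genes of the naive-like cluster, which those libraries held in smaller numbers. Tbx21, encoding the effector factor T-bet, stood at 45.7, 65.3, 43.7 and 71.4 CPM and was the 1 factor higher with the combination. Tox was at 247, 189.6, 221 and 229.7 CPM, Nr4a1 at 109, 85.7, 124 and 90.5, Nr4a2 at 435, 482, 402 and 526 and Nr4a3 at 97.002, 109.5, 86.05 and 89.9, none of them past 1.5-fold from IgG in any treated library.

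The genes through which PD-1 acts were counted in the same way. Of 10 signalling genes, all measured in CD8 T-like cells, 1 was higher and 1 lower with anti-PD-1 against IgG, and 0 either way with anti-PSGL-1 or the combination. The shares of all genes, given above, were 3.07% higher and 3.15% lower with anti-PD-1 and 0.377% to 3.33% in the other comparisons, and over so few genes nothing is read from these counts. Ptpn11, which encodes the phosphatase SHP-2, was even at 42.2, 41.4, 46.4 and 43.2 CPM. Ptpn6, encoding the related SHP-1, was the higher gene at 79.2, 136, 89.1 and 103 CPM. Sh2d1a, which encodes the adaptor SAP, was the lower one at 266, 177, 229.9 and 246 CPM. Of 6 other receptors and partners of the ligands, 4 were measured (Cd86, Cd28, Ctla4 and Icos) and 0 of them were higher or lower in any treated library against IgG, beside the same shares of 0.377% to 3.33% of all genes. Cd80, a partner of PD-L1 in the same membrane, was under 20 CPM in CD8 T-like cells.

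Of PD-1 and its ligands themselves, 1 of 3 was higher by 1.5-fold or more in CD8 T-like cells with anti-PD-1 against IgG (Pdcd1lg2), 0 of 3 with anti-PSGL-1 and 2 of 3 with the combination (both ligands). Of all genes measured, 3.07%, 0.830% and 3.33% were. With the combination against anti-PSGL-1 all 3 were higher by that size, Pdcd1 at 1.55, Cd274 at 1.57 (1.40 to 1.77) and Pdcd1lg2 at 1.60 (1.44 to 1.78), where 3.34% of all genes were. With the combination against anti-PD-1 0 of 3 were, where 1.37% of all genes were.

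Cd274 was highest in neutrophils, and by median most myeloid classes lay above the lymphoid ones. Neutrophil-like cells, led by S100a9, S100a8 and Retnlg, held 1288 CPM with anti-PD-1 and 961 with IgG, against 672 with anti-PSGL-1 and 639.8 with the combination. Migratory dendritic-like cells held 422 CPM with IgG and 299 with anti-PSGL-1. Macrophage-like cells held 173, 531, 204 and 359.7 CPM, and monocyte-like cells 102, 378, 120.4 and 270.5. In both, anti-PD-1 was highest, the combination next, and IgG and anti-PSGL-1 low. cDC2-like cells held 137, 316, 104 and 237 CPM, in nearly the same order of libraries. By median the lymphoid classes lay lower than these, with 73.7 to 97.7 CPM in NK-like and 61.9 to 100.2 in regulatory T-like cells. CD8 T-like cells, at 25.1, 35.7, 29.8 and 46.8 CPM, were the lowest class present in every library with at least 50 cells. With IgG, though, conventional CD4 T-like cells (109 CPM) stood above monocyte-like cells (102). The cDC1-like cells, also myeloid, held 54.2 to 86.1 CPM in the libraries with at least 50 of them. By median they lay below every lymphoid class but CD8 T-like cells. Apart from neutrophil-like cells, which lay above the next class in all libraries compared, and CD8 T-like cells, which lay below the class before them, the ranges of neighbouring classes over the libraries overlapped.

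Neutrophil-like cells were few and shallow, with 448, 52, 243 and 96 cells at medians of 1313.5 to 2210.0 UMIs. With anti-PD-1 the ratio to IgG was 1.34 (1.10 to 1.63). It was 0.700 (0.613 to 0.798) for anti-PSGL-1 and 0.666 (0.554 to 0.796) for the combination. The combination was thus below IgG in neutrophils, where it was above IgG in macrophages. The neutrophil marker list of these neutrophil-like cells stood at 62858, 49250, 88684 and 108407 CPM, in the reverse order of libraries to Cd274. Their macrophage marker list stood at 446, 815, 461 and 370 CPM, highest with anti-PD-1. The part of these differences in the Cd274 and Pdcd1lg2 values of neutrophil-like cells was not tested. Of 4095 genes measured in neutrophil-like cells, 25.1% were lower and 22.7% higher by 1.5-fold or more with the combination against IgG. Thinning to 2000 UMIs kept 40, 18, 122 and 66 of these cells, of which 70.0%, 66.7%, 43.4% and 48.5% held a Cd274 UMI (unthinned 43.5%, 55.8%, 39.5% and 50%).

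Cd274 in macrophage- and monocyte-like cells differed between the libraries more than any other value of the 3 genes in a class of more than 1000 cells per library. In these cells together the level was 154 (147 to 161), 496 (485 to 507), 183 (176 to 189) and 333 (323 to 343) CPM. The anti-PD-1 library stood at 3.22 (3.06 to 3.39) times IgG. The anti-PSGL-1 library stood at 1.18 (1.12 to 1.26) times IgG and the combination at 2.16 (2.04 to 2.28). Against the single antibodies, the combination stood at 0.670 (0.646 to 0.695) of anti-PD-1 and at 1.82 (1.74 to 1.91) of anti-PSGL-1. The combination thus lay between its component antibodies. The monocyte-like ratios were 3.69 (3.26 to 4.18), 1.18 (1.02 to 1.36) and 2.64 (2.33 to 3.01) and the macrophage-like ones 3.06 (2.89 to 3.24), 1.18 (1.10 to 1.26) and 2.08 (1.95 to 2.21). The neutrophil marker list stood in these cells at 120, 87.7, 109.7 and 116 CPM, which is 0.107% to 0.190% of its level in neutrophil-like cells, whereas Cd274 stood at 16.04% to 52.0% of its level there. A list of 10 melanoma genes made up 88.3, 48.3, 44.7 and 36.1 CPM, highest with IgG, where Cd274 was lowest.

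Every macrophage and monocyte cluster showed the higher Cd274 with anti-PD-1. The macrophage cluster led by Pmp22, Arg1 and Gpnmb was the highest of the large clusters, at 286, 710.3, 334 and 549.9 CPM. The cluster led by Ace, Adgre4 and Treml4, genes of non-classical monocytes, held 304, 540.3, 214 and 463 CPM in 68 to 114 cells per library. The largest macrophage cluster, led by Ly6i, Flt1 and Cmklr1, held 142, 474, 158 and 332 CPM. The monocyte cluster led by Hp, Mgst1 and Cd177 held 89.1, 359, 111 and 229 CPM and had the largest ratio to IgG with anti-PD-1, 4.03 (3.52 to 4.63). The cluster led by Ccl8, Ms4a7 and C1qa, genes of resident-like macrophages, was the lowest at 79.1, 192, 90.9 and 138 CPM. The order of libraries was the same in all but the Ace cluster, where anti-PSGL-1 was below IgG. Given the cluster make-up of IgG, the ratios to IgG were 3.02, 1.14 and 2.16, close to those found with each library's own make-up.

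**Figure D3:**
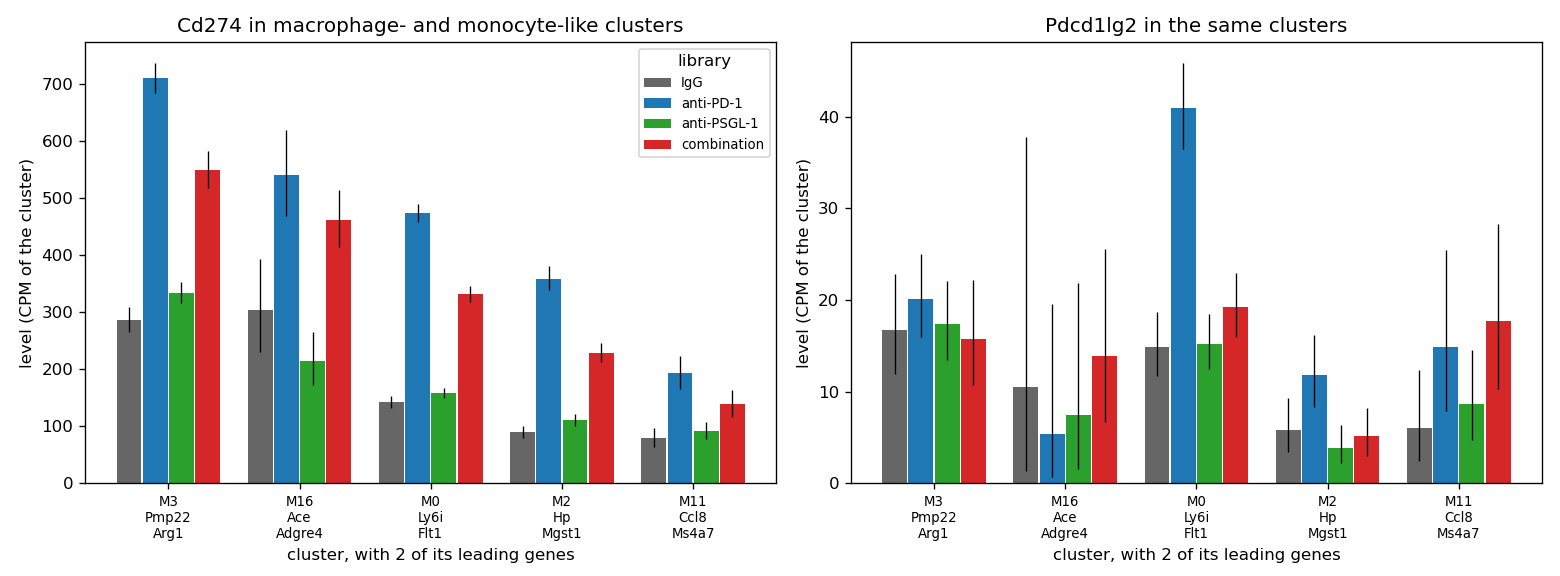
Cd274 and Pdcd1lg2 levels (CPM of the cluster) in macrophage and monocyte clusters named by leading genes, 1 bar per library with its 95% interval for counting error. Cd274 is highest with anti-PD-1 in all 5 clusters, and Pdcd1lg2 reaches its highest value, 41.0 CPM, in the Ly6i and Flt1 cluster with anti-PD-1.

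Both the share of cells with Cd274 and the UMIs in each were higher. After thinning to 2000 UMIs, 21.4% (19.7 to 23.2), 51.5% (49.4 to 53.5), 25.1% (23.3 to 27.0) and 38.4% (36.0 to 40.9) of macrophage- and monocyte-like cells held a Cd274 UMI, and unthinned 35.5%, 73.2%, 45.4% and 66.3%. Positive cells held 1.43, 2.05, 1.53 and 1.82 UMIs on average. Cells with 3 or more UMIs made up 1.81%, 13.6%, 3.02% and 8.63%. The lowest Cd274 share among classes with at least 50 cells was that of plasmacytoid dendritic-like cells in the IgG library, 4.92% (2.27 to 9.13) of 183 thinned cells at a median of 4818 UMIs before thinning. CD8 T-like cells held Cd274 in 5.36%, 8.35%, 7.77% and 12.1% of thinned cells (unthinned 13.3%, 29.4%, 20.6% and 37.4%). Their macrophage marker list stood at 0.388%, 0.540%, 0.690% and 0.483% of its level in macrophage- and monocyte-like cells, and their Cd274 at 16.3%, 7.19%, 16.3% and 14.1%, well above that fraction.

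**Figure D4:**
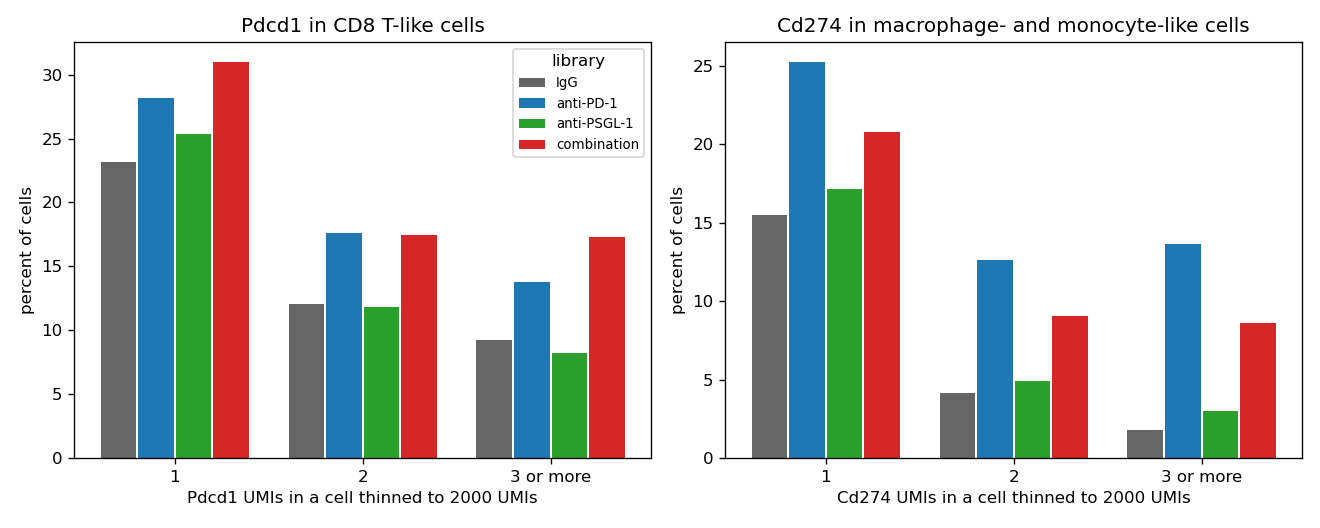
Percent of cells with 1, 2 and 3 or more UMIs after thinning each cell to 2000 UMIs, for Pdcd1 in CD8 T-like cells (left) and Cd274 in macrophage- and monocyte-like cells (right), 1 bar per library. Cells with 3 or more Cd274 UMIs are 1.81% with IgG and 13.6% with anti-PD-1.

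In T cells Cd274 varied less. In CD8 T-like cells the ratios to IgG were 1.42 (1.21 to 1.67), 1.19 (1.01 to 1.40) and 1.87 (1.62 to 2.16) for anti-PD-1, anti-PSGL-1 and the combination. The Gzmk and Cxcr3 cluster was the highest of the larger CD8 clusters, at 48.4, 91.7, 54.7 and 111 CPM, and the dividing cluster, at 15.2, 21.5, 20.5 and 32.4 CPM, and the Tff1 cluster, at 20.4, 25.9, 20.1 and 37.4 CPM, were low. The cluster richest in Cd274 was thus the one with the least Pdcd1 among the 4 clusters rich in it. The conventional CD4 T-like class was at 109, 97.1, 61.8 and 102 CPM, with anti-PSGL-1 at 0.569 (0.440 to 0.735) of IgG.

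The interferon-gamma route to Cd274 was measured in macrophage- and monocyte-like cells with 11 of 12 listed genes. With anti-PD-1 against IgG 5 were higher and 1 lower by 1.5-fold or more, where 7.25% of all 5024 genes measured were higher and 3.54% lower. With anti-PSGL-1 against IgG 0 were higher and 0 lower, against 0.864% and 0.804% of all genes. With the combination against IgG 5 were higher and 0 lower, against 3.40% and 1.41%. The list's median log2 ratios were 0.58, -0.12 and 0.29. The 5 genes were the same with anti-PD-1 and the combination, and Irf1, Socs1, Cxcl9 and Cxcl10 were among them. Irf1, which encodes a factor that acts on the Cd274 promoter, stood at 237, 568, 198 and 497 CPM. Socs1, a feedback inhibitor of this route, stood at 70.7, 291, 50.6 and 175 CPM, and the chemokine Cxcl10 at 708, 2134, 480.4 and 1217. Irf1, Socs1, Cxcl10 and Cd274 shared the order of libraries at the top, anti-PD-1 and then the combination. Ifngr1, encoding the receptor chain that binds interferon-gamma, was the lower gene at 208, 124, 213 and 188 CPM. Ifng itself, measured in CD8 T-like cells, stood at 236, 535, 183 and 369.9 CPM.

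Among single macrophage- and monocyte-like cells thinned to the same depth, Cd274 was more often found with Socs1 or Irf1. It was in 29.4%, 59.1%, 41.8% and 46.6% of cells with a Socs1 UMI and in 20.5%, 47.6%, 23.6% and 36.3% of those without. With Irf1 the shares were 22.9%, 57.8%, 30.3% and 45.3% against 20.8%, 43.6%, 23.3% and 30.7%. The Irf1 gap was small with IgG and wide with anti-PD-1 and the combination. Other genes examined in the same way included Cxcl9, Cxcl10 and Hif1a, each of which also went with more Cd274 in every library. Hif1a is not on the interferon-gamma list. Its shares were 22.1%, 55.4%, 27.9% and 41.7% with it against 21.1%, 49.2%, 23.5% and 36.5% without. For Cd80 the gap did not have 1 direction. Cells with Cmtm6, which encodes a protein that stabilises PD-L1, held Cd274 in 16.02%, 45.9%, 15.9% and 40.9% of cases, against 22.1%, 52.2%, 26.2% and 38.1% without. Of 12 other listed regulators of Cd274, 8 were measured, and 0 were higher or lower in any treated library against IgG, which for so few genes is near the shares of all genes (0.804% to 7.25%). Cmtm6 itself was even, at 60.8, 58.9, 54.7 and 67.8 CPM.

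Of the ligands, both were higher by 1.5-fold or more in macrophage- and monocyte-like cells with anti-PD-1 against IgG, where 7.25% of all genes measured were. With the combination against anti-PD-1, Pdcd1lg2 was lower by that size and Cd274 (0.670) was not, where 3.00% of all genes measured were lower. With the combination against anti-PSGL-1, Cd274 was higher by that size, where 4.38% of all genes were, and Pdcd1lg2 was under the minimum of 20 CPM in both.

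Pdcd1lg2 shared its highest class with Cd274, but was higher in NK- and regulatory T-like than in macrophage-like cells in every library, where Cd274 was lower. By its median it was highest in neutrophil-like cells, at 205, 402, 149 and 74.8 CPM, from only 128, 40, 81 and 18 UMIs. NK-like cells came next by median, at 121, 153, 130.4 and 131 CPM, nearly even between the libraries. Migratory dendritic-like cells held 129 CPM with IgG and 96.6 with anti-PSGL-1, and regulatory T-like cells 101, 112, 78.9 and 92.2. The lymphoid classes were thus among the highest, and the ranges of neighbours from neutrophil-like to macrophage-like cells overlapped. cDC2-like cells held 36.5, 75.5, 43.2 and 68.7 CPM and CD8 T-like cells 30.8, 49.1, 36.8 and 59.0. Macrophage-like cells held 14.2, 32.4, 15.02 and 18.3 CPM and monocyte-like cells 6.11, 11.1, 4.20 and 6.70, below every T and NK class of the same library. Plasmacytoid dendritic-like cells had 1 UMI in 185 cells of the IgG library.

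The Pdcd1lg2 of NK-like cells did not follow macrophage transcripts. Their macrophage marker list was at 0.460% to 0.725% of its level in macrophage- and monocyte-like cells, and their Pdcd1lg2 at 555% to 1067% of it. After thinning, 20.9%, 22.2%, 23.0% and 18.0% of NK-like cells held a Pdcd1lg2 UMI (unthinned 24.2%, 34.7%, 42.3% and 49.0% at medians of 2488 to 5873 UMIs), against 1.76%, 4.21%, 2.14% and 2.11% of macrophage- and monocyte-like cells (unthinned 4.32%, 10.1%, 6.01% and 7.54%). Thinning left out 200, 24, 15 and 1 NK-like cells. Ratios to IgG in NK-like cells were 1.26 (1.07 to 1.49), 1.08 (0.913 to 1.27) and 1.08 (0.908 to 1.29), the smallest spread of Pdcd1lg2 among the classes with at least 50 cells in all libraries. In regulatory T-like cells the thinned shares were 20.0%, 13.9%, 15.1% and 18.9%, and anti-PSGL-1 stood at 0.778 (0.636 to 0.949) of IgG.

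In macrophage- and monocyte-like cells Pdcd1lg2 stood out in the anti-PD-1 library. The level was 12.0 (10.1 to 14.2), 27.6 (25.1 to 30.3), 12.2 (10.6 to 14.03) and 14.8 (12.8 to 16.98) CPM. The ratio to IgG was 2.30 (1.90 to 2.81) with anti-PD-1. It was 1.02 (0.817 to 1.27) for anti-PSGL-1 and 1.23 (0.984 to 1.54) for the combination. The combination was at 0.534 (0.449 to 0.634) of anti-PD-1. The Ly6i, Flt1 and Cmklr1 cluster held 14.9, 41.0, 15.2 and 19.2 CPM, a ratio of anti-PD-1 to IgG of 2.75 (2.13 to 3.60). The Arg1 cluster, rich in Cd274, held 16.7, 20.1, 17.4 and 15.7 CPM, a ratio of 1.20 (0.812 to 1.81). Without the Ly6i cluster the log2 ratio of anti-PD-1 to IgG was 0.68 in place of 1.20. Of 12 genes on the interleukin-4 and colony stimulating factor routes to Pdcd1lg2, 7 were measured in these cells, and 0 were higher or lower in any treated library, again near the 0.804% to 7.25% of all genes. Il4ra, encoding the interleukin-4 receptor chain, was at 99.5, 124, 99.9 and 103 CPM and Stat6 at 55.9, 61.6, 70.0 and 64.4.

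CD8 T-like cells carried more Pdcd1lg2 with anti-PD-1 and the combination, with ratios to IgG of 1.59 (1.38 to 1.84) and 1.92 (1.68 to 2.19), and 1.20 (1.03 to 1.39) with anti-PSGL-1. The granzyme cluster was the highest at 77.5, 62.7, 65.2 and 83.4 CPM, and it was also the cluster that these 2 libraries held in the largest numbers. Given the cluster make-up of IgG the ratios were 1.28, 1.17 and 1.35, and with the make-up alone exchanged 1.52, 1.03 and 1.48. In the dividing cluster the level was 22.6, 39.4, 30.5 and 50.3 CPM, so that a difference remained there. After thinning, 5.07%, 7.75%, 5.69% and 10.9% of CD8 T-like cells held a Pdcd1lg2 UMI (unthinned 14.7%, 35.4%, 23.2% and 40.4%), with 1.03 to 1.12 UMIs in a positive cell. The part of depth in the remaining difference was not tested.

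The ligands were seen in the same macrophage-like cells more often than the product of their shares gives. The excess was slight with IgG and anti-PD-1 and larger with anti-PSGL-1 and the combination. Of 1454, 1734, 1537 and 1002 thinned cells, 8, 56, 23 and 17 held both, where the products were 7.32, 48.3, 12.2 and 10.1. In cDC2-like cells 11, 17, 10 and 7 held both, where the products were 8.17, 9.90, 3.24 and 4.81. Cells of 1 library share depth, treatment and free RNA, so these are descriptions. In CD8 T-like cells Pdcd1 and Cd274 were found together in 27, 51, 44 and 141 cells, near the products of 32.9, 58.4, 50.8 and 139.

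Over the whole infiltrate, CD8 T-like cells held 68.0%, 92.0%, 76.95% and 94.998% of all Pdcd1 UMIs. Cells of unnamed clusters held 13.5%, 0.547%, 2.69% and 0.0743% of them. In the mixed cluster, found mostly in the IgG library, 63.2% of cells held Cd8a or Cd8b1. Macrophage- and monocyte-like cells held 38.8%, 79.9%, 53.8% and 68.7% of all Cd274 UMIs, and neutrophil-like cells 13.1%, 1.29%, 6.49% and 2.39%. For Pdcd1lg2 the largest holder was CD8 T-like cells, with 16.97%, 34.9%, 25.9% and 64.0%, while NK-like cells held 16.7%, 17.2%, 16.7% and 12.0%. CD8 T-like cells gave 22.5%, 36.2%, 27.7% and 52.7% of all UMIs, so their share of Pdcd1lg2 was close to or below their share of UMIs except with the combination. In all kept cells, Pdcd1 stood at 1.53, 0.975 and 2.33 times IgG for anti-PD-1, anti-PSGL-1 and the combination. With the class make-up of IgG these were 1.38, 0.906 and 1.28, so that the combination's value came down most. Cd274 stood at 2.38, 1.06 and 1.36 times IgG, and at 2.15, 1.11 and 1.91 with the class make-up of IgG, so that the combination's value went up. Pdcd1lg2 stood at 1.25, 0.964 and 1.19 times IgG, and at 1.43, 1.06 and 1.34 with that make-up.

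**Figure D5:**
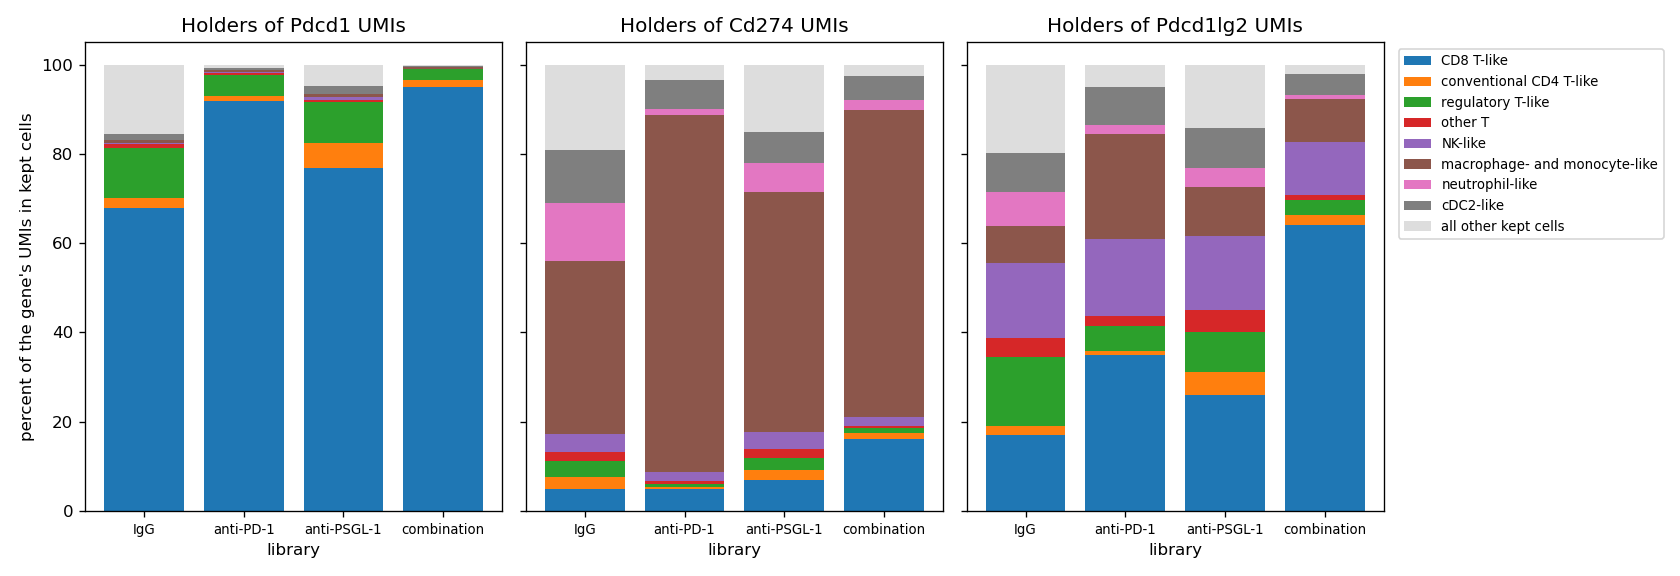
Percent of all UMIs of Pdcd1, Cd274 and Pdcd1lg2 held by each cell class in each library (stacked bars). CD8 T-like cells hold 68.0% to 94.998% of Pdcd1, macrophage- and monocyte-like cells 38.8% to 79.9% of Cd274, and Pdcd1lg2 is spread over CD8 T-like, NK-like and other cells.

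Across 36 points (9 classes in 4 libraries, which share libraries and depth), the genes whose log2 levels followed each member most closely were described by Pearson's r among 8331 genes. For Pdcd1 they were Ubash3a, Fam169b, Cd8b1, Cd6 and Cd3e, all at 0.94. For Cd274 they were Ifrd1 (0.94), Klf6 (0.93), Fnip1 (0.92), Gla (0.92) and Cpeb2 (0.91). For Pdcd1lg2 they were Syne1 (0.81), N4bp3 (0.78), Acap1 (0.77), Sbno1 (0.75) and Tfrc (0.75), less close than for the other members. Between members r was -0.71 for Pdcd1 and Cd274, 0.16 for Pdcd1 and Pdcd1lg2 and 0.12 for the neighbouring ligand genes.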

How the data were processed

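Samples were grouped by their treatment labels, 1 library to a group. The deposited tables hold raw counts of UMIs for each gene in each barcode, without normalisation. The authors used Cell Ranger 3.1.0 on mm10 and FastQC, per the submitters' processing notes; the annotation version is not given in the sources used here. Barcodes were dropped below 300 genes, above 10% mitochondrial UMIs or above 60000 UMIs. Scrublet, in scanpy, called 1, 84, 0 and 42 doublets by its own threshold, so the top-scoring 0.8% per 1000 cells were removed instead (717, 219, 377 and 154). Depth was a median of 3674.5, 6252, 6164 and 8392 UMIs per kept cell.

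Pdcd1, Cd274 and Pdcd1lg2 were left out of the 2000 variable genes used for clustering (30 principal components, 20 neighbours, Leiden resolution 1, no batch correction). T and NK cells were clustered again, giving 27 clusters in all. A cluster was named from marker lists with at least 3 markers in 10% of cells and at 1.5-fold over the median cluster, and under 25% mixed cells. Naming as CD8 T-like required 60% of cells with Cd8a or Cd8b1 and no more than 20% with Cd4. The requirement was 40% with Cd4 for conventional CD4 T-like and 50% with Foxp3 for regulatory T-like clusters. The naming thresholds were chosen with the clusters in view. The genes followed and the lists were chosen with earlier results of these data known.

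UMIs were summed per class and library (at least 50 cells, except for ratios with an exchanged make-up) and scaled to CPM of the class. Intervals are exact (Poisson for levels, Clopper-Pearson for shares, conditional for ratios) and cover counting error only. Each treated library was set against IgG and the combination against each antibody alone, 5 comparisons, with no test. For shares, cells were thinned to 2000 UMIs. Named genes were the 3 followed, up to 2 list genes each way per comparison and a set chosen for known roles; likeness used log2(CPM + 1). In the lists, 1 gene was counted but is not reported here by name. Alternatives were edgeR's TMM and RLE scaling, equal cell weights, a marker gate in place of clusters, cells without dividing genes, leaving out the largest cluster, and thinned counts, with 3 more chosen after seeing the data. The interval and ratio code was tested on simulated data. Gene models are from GENCODE M21 and promoters from RefSeq. Tools were Python 3.11.15, scanpy 1.11.5, leidenalg 0.10.2, numpy 2.4.6, scipy 1.17.1, R 4.3.3 and edgeR 4.0.16.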

Additional observations from a re-analysis of the deposited data

Results flagged for a closer look

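For 7 combinations of a gene and a treatment, at least 1 class lay above IgG and at least 1 below, with intervals for counting error that left out 1. For each, the class with the highest lower bound and the class with the lowest upper bound are given here, and these are not the only such pairs. No such difference between classes was tested, since each value rests on 1 library per treatment, and all share the IgG library. For Pdcd1 with anti-PD-1 the ratio to IgG was 3.78 (1.48 to 11.5) in NK-like and 0.630 (0.399 to 0.969) in cDC2-like cells, from 6 and 21 UMIs in NK-like and 88 and 29 UMIs in cDC2-like cells. For Pdcd1 with anti-PSGL-1 it was 6.05 (2.54 to 17.5) in NK-like cells and 0.564 (0.370 to 0.852) in T cells of no assigned subset. The NK-like cells held T cell transcripts in every library, and their part in the NK-like ratios was not tested. For Pdcd1 with the combination it was 2.44 (1.96 to 3.05) in conventional CD4 T-like and 0.384 (0.191 to 0.705) in cDC2-like cells, where T cell transcripts were also lowest with the combination. In the conventional CD4 T-like cells, Cd8a and Cd8b1 transcripts were highest with the combination.

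For Cd274 with anti-PSGL-1 the ratio to IgG was 1.18 (1.10 to 1.26) in macrophage-like and 0.569 (0.440 to 0.735) in conventional CD4 T-like cells. For Cd274 with the combination it was 2.64 (2.33 to 3.01) in monocyte-like and 0.666 (0.554 to 0.796) in neutrophil-like cells. For Pdcd1lg2 with anti-PSGL-1 it was 1.20 (1.03 to 1.39) in CD8 T-like and 0.778 (0.636 to 0.949) in regulatory T-like cells. For Pdcd1lg2 with the combination it was 1.92 (1.68 to 2.19) in CD8 T-like and 0.366 (0.210 to 0.601) in neutrophil-like cells, the latter from 18 UMIs. With the combination against IgG, 25.1% of all 4095 genes measured in neutrophil-like cells were lower by 1.5-fold or more. The neutrophil marker list of these cells was highest with the combination, and its part in their ratios was not tested.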

How the results depend on the processing

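Each of 15 ratios (Pdcd1 in CD8 T-like cells, Cd274 and Pdcd1lg2 in macrophage- and monocyte-like cells, 5 comparisons each) was computed under 12 or 13 alternatives, including no doublet removal, stricter cell filters and a finer clustering, and 148 values moved by less than the counting interval. The 3 alternatives on the mixed clusters and the naive-like cluster were chosen after seeing the data. All values here are log2 ratios. Pdcd1 with anti-PD-1 against IgG (0.36) was 0.52 with every cell weighing the same, 0.56 without cells holding Mki67 or Top2a, 0.63 without the largest cluster, 0.48 thinned, 0.56 with the mixed cluster's CD8 cells and 0.24 without the naive-like cluster. In the same order, the combination against IgG (0.47) was 0.65, 0.79, 0.74, 0.70, 0.67 and 0.31. Anti-PSGL-1 against IgG (-0.16) was -0.094 with every cell weighing the same, -0.062 without the largest cluster, -0.064 thinned and -0.24 without the naive-like cluster, and it turned to 0.020 with the mixed cluster's CD8 cells. The combination against anti-PD-1 (0.11) was 0.23 without dividing cells and 0.22 thinned. Against anti-PSGL-1 (0.63) it was 0.75 with equal weights, 0.92 without dividing cells, 0.81 without the largest cluster, 0.76 thinned and 0.55 without the naive-like cluster.

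Cd274 with anti-PD-1 against IgG (1.69) was 1.78 with marker gates and 1.79 thinned, and the combination against IgG (1.11) 1.20 and 1.19. The combination against anti-PD-1 (-0.58) was -0.64 with TMM, -0.64 with median-of-ratios factors and -0.63 without the largest cluster, and against anti-PSGL-1 (0.87) 0.96 with marker gates and 0.74 without the largest cluster. Pdcd1lg2 with anti-PD-1 against IgG (1.20) was 0.68 without the largest cluster. The combination against anti-PD-1 (-0.90) was -0.63 with marker gates, -0.55 without the largest cluster and -1.25 thinned. The cause of these moves was not tested. For Pdcd1lg2, anti-PSGL-1 against IgG (0.03) and the combination against anti-PSGL-1 (0.27) kept their sign in 11 of 12 alternatives. Thinning to 1000 UMIs lowered all 12 shares of cells. The list counts were repeated with no level minimum and with a minimum of 50 CPM. Factors of Pdcd1 lower with anti-PD-1 (4) were 6 and 3, those lower with the combination (4) were 5 and 3, and those lower with anti-PSGL-1 (0) were 1 and 0. Interferon-gamma route genes higher with anti-PD-1 (5) were 6 and 5. The other counts of these 2 lists against IgG did not change. Small UMI numbers limit Pdcd1 outside T cells and all neutrophil values. No paired analysis was possible because each treatment is 1 library and the labels give no replicate numbers.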

Other observations

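B-like cells held 9, 24 and 39 Cd274 UMIs in 221, 55 and 185 cells with IgG, anti-PD-1 and anti-PSGL-1, which is 22.8, 162 and 86.0 CPM. The ratios to IgG were 7.10 (3.19 to 17.4) and 3.77 (1.80 to 8.85), wide intervals that rest on few UMIs. With IgG, anti-PD-1 and anti-PSGL-1, the macrophage marker list of B-like cells stood at 9.46%, 15.9% and 14.99% of its macrophage- and monocyte-like level. Cd274 of B-like cells stood at 14.8%, 32.6% and 47.1% of its level there. The part of macrophage transcripts in the Cd274 ratios of B-like cells was not tested. The combination library had 5 UMIs in 40 B-like cells.

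In the anti-PSGL-1 library, where the most neutrophil-like cells reached 2000 UMIs, these cells held both ligands together more often than the product of the shares gives. Of 122 thinned cells, 53 held Cd274, 17 held Pdcd1lg2 and 15 held both, where the product was 7.39. With the combination, 3 of 66 thinned cells held both, where the product was 2.42. An unnamed cluster with neutrophil genes (Asprv1 and Il1f9) among its leading genes held 429 CPM of Cd274 and 84.9 CPM of Pdcd1lg2 in the 66 cells of that library. Mast- or basophil-like cells, 44 in all, held 0 Pdcd1 UMIs, 4, 6, 7 and 1 Cd274 UMIs and 4, 3, 6 and 1 Pdcd1lg2 UMIs.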
